A study of Mus musculus with 18 samples.

Results

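The 8 genes described here encode small membrane proteins that cross the membrane 4 times: *Tmem176a* and *Tmem176b*, and 6 genes of the Ms4a family, *Ms4a7*, *Ms4a6b*, *Ms4a6c*, *Ms4a6d*, *Ms4a4a* and *Ms4a4c*. They were taken by gene symbol from a table of 31053 genes, and all 8 symbols were found. The family was selected on results already known from these same libraries, so every value below is a description of these genes, and an adjusted p says only where a gene stood among all genes tested. All 8 passed the filter on low counts that left 12290 genes for testing.

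The cells were bone marrow-derived macrophages of 12-week-old C57Bl/6J mice, grown from marrow for 7 days and then kept for 24 h in control medium, with acetylated LDL (acLDL, 50 µg/mL) or with oxidized LDL (oxLDL, 100 µg/mL). The mice carried the Slc7a7-LysM alleles, in which Cre is driven by the myeloid LysM promoter: Slc7a7-/- (knockout) and Slc7a7+/+ (wild type) animals, 3 of each, and each mouse gave 1 culture per medium, so that 18 libraries fell into 6 groups of 3. Deletion by LysM-Cre depends on Cre acting in each cell, and *Slc7a7* reads were still counted in every knockout library, at 2.22 to 10.9 CPM (counts scaled to the library's total, TMM-corrected) against 11.1 to 29.3 in wild type. *Slc7a7*, which encodes a subunit of a cationic and neutral amino acid exchanger, passed the test between genotypes in acLDL (log2 fold change -2.89, SE 0.36, edgeR adjusted p = 0.000472), and in control medium and oxLDL its adjusted p was 1.0 and 0.276, although in each medium the genotypes did not overlap.

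Libraries held between 1043492 and 1768816 counts, which is shallow, so 3 counts in a library correspond to between 1.67 and 2.85 CPM. The macrophage markers were present in every library (8 of 8 tested, summed level 3480 to 7250 CPM, with *Csf1r* at 1310 CPM or more). Monocyte markers were also present, at a summed level of 68.7 to 156 CPM, chiefly *Ccr2* at 52.6 to 130 CPM. Markers of 4 other kinds of cell in which single members of these families are known were at or near 0: B-cell markers summed to at most 3.94 CPM, with *Ms4a1* and *Cd79a* at 0 in all libraries, mast cell and basophil markers to at most 1.96 CPM, with *Fcer1a* and *Cpa3* at 0, dendritic cell markers to at most 5.2 CPM, and Th17 and ILC3 markers to at most 1.46 CPM, with *Il17a* and *Il22* at 0. In bulk libraries such as these, fewer cells of a type and less RNA per cell cannot be told apart.

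Ms4a proteins are named for their membrane-spanning 4-domain fold. Single members act as subunits or partners of immune receptors: *Ms4a1* encodes CD20 of B cells, and *Ms4a2* encodes the beta chain of the high-affinity IgE receptor of mast cells. Several genes of the *Ms4a4*, *Ms4a6* and *Ms4a7* branches are expressed by monocytes and macrophages, and the MS4A4A protein is known to affect the level of soluble TREM2. *Tmem176a* and *Tmem176b* encode related cation channels of intracellular membranes, found in dendritic cells, macrophages and RORgammat-expressing lymphocytes; TMEM176B is known as a marker of immune tolerance and of immature dendritic cells and limits inflammasome activation.

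The 2 *Tmem176* genes lie head to head on chromosome 6 of the mm10 (GRCm38) build. *Tmem176b* (ENSMUSG00000029810) runs on the minus strand over chr6:48833818-48841496 and *Tmem176a* (ENSMUSG00000023367) on the plus strand over chr6:48840919-48847071, so that the annotated genes overlap by 578 bases. A start site of *Tmem176b* (position 48841374) and one of *Tmem176a* (48841483) are 109 bases apart. Their start region is shown because both genes fell with oxLDL in these libraries, and its part in that fall was not tested. Of the start sites read for the 2 genes, the 2 named lie closest together. The windows below are the RefSeq sequences (GRCm38.p6) of 300 bases around each of these start sites, ending 50 bases after it, each written 5′ to 3′ on its gene's strand. They share 208 bases, read in opposite directions. Capitals mark GAGGAA, the core of the binding motif of the myeloid factor PU.1, or the same core on the other strand, TTCCTC.
Tmem176b, chr6:48841325-48841624, minus strand: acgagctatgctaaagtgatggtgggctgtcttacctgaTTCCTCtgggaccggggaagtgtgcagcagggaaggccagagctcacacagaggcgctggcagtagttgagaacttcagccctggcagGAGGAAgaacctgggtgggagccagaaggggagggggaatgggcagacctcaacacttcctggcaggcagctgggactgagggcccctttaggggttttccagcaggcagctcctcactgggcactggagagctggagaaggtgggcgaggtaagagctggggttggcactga
Tmem176a, chr6:48841233-48841532, plus strand: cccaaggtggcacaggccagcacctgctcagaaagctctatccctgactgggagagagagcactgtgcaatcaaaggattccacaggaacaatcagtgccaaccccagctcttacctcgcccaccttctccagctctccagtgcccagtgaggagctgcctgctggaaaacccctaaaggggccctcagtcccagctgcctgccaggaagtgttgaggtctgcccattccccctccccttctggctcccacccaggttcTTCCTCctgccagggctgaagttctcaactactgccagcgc

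The core is common: 28.3% of all 32851 RefSeq promoter windows of that length hold it on either strand. The interferon-stimulated response element, searched as GAAANNGAAA on both strands and present in 3.44% of all windows, was found in none of the 11 windows of the members, and no more than the absence of these letters follows from that. The other motifs searched on both strands were the nuclear receptor half-site AGGTCA (in 16.3% of all windows), the AP-1 site TGANTCA (7.81%), the NF-kB site GGGANTTTCC (0.411%), the CCAAT box (37.4%) and the TATA box TATAAA (13.6%). Among the Ms4a members, GAGGAA was present in a window of *Ms4a7* and in that of *Ms4a4c*, an AP-1 site and a CCAAT box in another window of *Ms4a7*, and an NF-kB site in that of *Ms4a4a*. The 11 windows belong to 7 of the members, and *Ms4a6d* had none.

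The 6 Ms4a members lie within 284 kb on chromosome 19, in the order *Ms4a7* (chr19:11321039-11336146), *Ms4a4a* (chr19:11375523-11392790), *Ms4a4c* (chr19:11404770-11427246), *Ms4a6c* (chr19:11469366-11482192), *Ms4a6b* (chr19:11516512-11531256) and *Ms4a6d* (chr19:11586604-11604849). Some of them are close copies. Of all 31-base words in the transcripts of *Ms4a6c*, 21.9% also occur in another gene on the same strand, most of them in *Ms4a6b*, and 51.0% occur on the opposite strand, most of them in the overlapping antisense transcript BE692007. For *Ms4a4c* the share on the same strand is 17.1%, mostly with *Ms4a4b*. It is 8.11% for *Ms4a6d*, 7.84% for *Ms4a6b*, 1.22% for *Ms4a7*, 0.026% for *Tmem176a*, and 0 for *Ms4a4a* and *Tmem176b*. Counts of *Ms4a6c* and *Ms4a4c* are therefore the least certain of the 8, since the counting could have divided shared reads between copies. The 2 *Tmem176* genes share 32 words, on opposite strands.

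Set per kb of transcript so that genes can be compared, *Ms4a7* was the most abundant member in every group, with group means of 109 to 221 CPM per kb. Over all 18 libraries the mean level was 160 CPM per kb for *Ms4a7*, 38.6 for *Ms4a6d*, 32.8 for *Tmem176b*, 27.5 for *Ms4a6c*, 7.73 for *Tmem176a*, 6.98 for *Ms4a6b*, 6.24 for *Ms4a4a* and 4.11 for *Ms4a4c*. In wild type control cells *Tmem176b* stood at 66.7 ± 48.8 CPM per kb (SD, n = 3), *Ms4a6d* at 47.1 ± 12 and *Ms4a6c* at 32.5 ± 7.93, so the 3 genes below *Ms4a7* did not differ beyond their spread. Nor did *Tmem176a* (16.3 ± 13.3), *Ms4a6b* (8.78 ± 2.44), *Ms4a4c* (5.7 ± 3.94) and *Ms4a4a* (5.12 ± 2.4). In oxLDL-treated knockout cells *Tmem176b* stood at 10.3 ± 6.89 CPM per kb, below *Ms4a6d* (30.0 ± 4.21). Its mean was also below that of *Ms4a6c* (17.2 ± 1.79), but not beyond the spread. *Tmem176a* was the lowest of the 8 with oxLDL, at 1.11 ± 1.92 CPM per kb in wild type and 1.2 ± 0.323 in knockout cells. In those knockout cells *Ms4a4c* (1.66 ± 1.44) did not differ from it beyond the spread. In wild type cells with oxLDL, *Ms4a4c* (3.16 ± 2.72) and *Ms4a4a* (6.69 ± 4.91) did not differ from *Tmem176a* beyond the spread either.

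Of the other 13 Ms4a genes in the table, only *Ms4a14* passed the filter (9.58 to 34.0 CPM). *Ms4a4b* had 14 counts in all libraries together, *Ms4a2* 5, *Ms4a3* 5 and *Ms4a8a* 1, and the remaining 8, *Ms4a1* among them, had no count in any library. *Ms4a14* did not pass in any comparison, and its log2 fold change with oxLDL was -0.51 (SE 0.32, adjusted p = 0.675) in wild type and -0.74 (SE 0.32, adjusted p = 0.337) in knockout cells.

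Both *Tmem176* genes fell with oxidized LDL in both genotypes, to 0.201 and 0.202 times the control level for *Tmem176b* and to 0.0807 and 0.0994 times for *Tmem176a* in wild type and knockout cells. No other member passed the test with oxLDL. In wild type cells, *Tmem176b* was measured at 13, 97.0 and 63.4 CPM in control medium (mice 1, 2 and 3) and at 9.86, 16.7 and 8.48 CPM with oxLDL. Mouse 1 was low already in control medium, so the 2 groups overlapped, although all 3 mice were lower with oxLDL. The log2 fold change was -2.31 (SE 0.52, edgeR quasi-likelihood test, adjusted p = 0.0208).

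In knockout cells, *Tmem176b* stood at 35.6, 41.5 and 61.9 CPM in control medium and at 2.53, 14.4 and 9.83 CPM with oxLDL. Here all control libraries were above all oxLDL libraries. The log2 fold change was again -2.31 (SE 0.55, adjusted p = 0.0214).

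*Tmem176a* was counted far less often. It gave 4, 33 and 13 counts in the wild type control libraries (3.71, 23.0 and 9.48 CPM) and 0, 4 and 0 counts with oxLDL, where the 2 libraries without a count allow up to 2.69 and 1.96 CPM. Its groups did not overlap, and the log2 fold change was -3.63 (SE 0.76, adjusted p = 0.01). From the summed counts, 4 against 50, the ratio was 0.0727 with a 95% exact counting interval of 0.0191 to 0.198, which covers counting error only.

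In knockout cells *Tmem176a* gave 19, 11 and 18 counts in control medium (11.5, 6.81 and 11.6 CPM) and 1, 1 and 2 counts with oxLDL (0.842, 0.684 and 1.16 CPM). All 3 mice were lower and the groups did not overlap. The log2 fold change was -3.33 (SE 0.77, adjusted p = 0.0164), and the summed counts, 4 against 48, gave a ratio of 0.0918 (0.024 to 0.251).

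**Figure D1:**
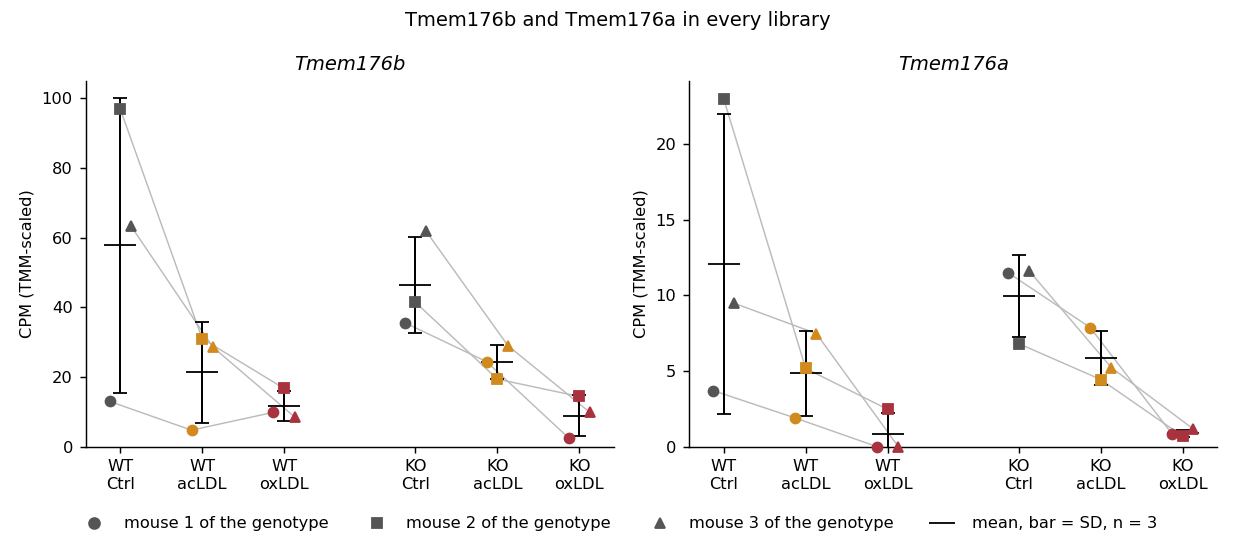
Level of Tmem176b (left) and Tmem176a (right) in CPM on a linear axis from 0, by genotype and medium. Symbols are single libraries, 1 shape per mouse of a genotype with grey lines joining its 3 cultures, and black marks give the group mean with its SD (n = 3). With oxLDL Tmem176b lies between 2.53 and 16.7 CPM and Tmem176a between 0 and 2.47 CPM, and wild type mouse 1 is low in control medium for both genes.

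*Tmem176a* and *Tmem176b* were the 2 of 8 members called with oxLDL in wild type cells, where 1.07% of all genes tested were called lower, and again in knockout cells, where 1.66% were. No member was called higher in either. Leaving out wild type control replicate 1, the mouse that was low in control medium, kept both wild type calls (adjusted p = 0.00106 for *Tmem176a* and 0.000258 for *Tmem176b*) and gave *Tmem176b* a call with acLDL (log2 fold change -1.84, adjusted p = 0.017). Other libraries decided the calls. In wild type cells both were lost without control replicate 2 (adjusted p = 0.173 for *Tmem176a* and 0.236 for *Tmem176b*) or without oxLDL replicate 3 (0.0815 and 0.134). In knockout cells both were lost without control replicate 3, oxLDL replicate 1 or oxLDL replicate 3 (adjusted p of at least 0.0639). The log2 fold changes over all libraries left out in turn ranged from -7.18 to -2.77 for *Tmem176a* and from -2.75 to -1.73 for *Tmem176b* in wild type cells, and from -3.56 to -3.17 and from -2.77 to -1.93 in knockout cells.

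With acetylated LDL the pair lay between control and oxLDL. *Tmem176b* was at 4.74, 31 and 28.6 CPM in wild type and 24.4, 19.4 and 29.0 CPM in knockout cells, a log2 fold change against control of -1.4 (SE 0.48, adjusted p = 0.378) and -0.93 (SE 0.47, adjusted p = 0.695). All 3 mice of each genotype were below their own control culture, and in knockout cells the groups did not overlap. Because the 3 cultures of a genotype came from the same mice, the fit was repeated with mouse as a block. With a fixed block *Tmem176b* was called lower with acLDL in wild type (log2 fold change -1.39, adjusted p = 0.00127) and in knockout cells (-0.94, adjusted p = 0.0283). With mouse as a random block in limma it was called in neither (-1.36, adjusted p = 0.319, and -0.91, adjusted p = 0.415).

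*Tmem176a* was at 1.9, 5.17 and 7.48 CPM with acLDL in wild type and at 7.88, 4.44 and 5.22 CPM in knockout cells. Its log2 fold changes were -1.29 (SE 0.57, adjusted p = 0.603) and -0.79 (SE 0.54, adjusted p = 0.809), and it was not called with mouse as a fixed or random block either.

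No member was called with acLDL by edgeR without the block, where 0.472% of all genes in wild type and 0.521% in knockout cells passed in either direction, and DESeq2 called none. At an unadjusted p under 0.05 there were 3 members in wild type cells (*Tmem176a*, *Tmem176b* and *Ms4a7*, against 7.33% of all genes) and 1 in knockout cells (*Ms4a7*, against 7.53%), all lower. With mouse as a fixed block 2 members, *Tmem176b* and *Ms4a7*, were called in each genotype, where 1.43% of all genes in wild type and 1.70% in knockout cells were called lower. With mouse as a random block no member was called in wild type and *Ms4a7* alone in knockout cells.

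Between oxLDL and acLDL, which were given at different doses, *Tmem176b* was lower with oxLDL in 2 of 3 wild type and 3 of 3 knockout mice, and *Tmem176a* in 3 of 3 of each. The log2 differences were -0.91 (SE 0.59, adjusted p = 0.965) and -1.38 (SE 0.59, adjusted p = 0.866) for *Tmem176b*, and -2.35 (SE 0.88, adjusted p = 0.837) and -2.54 (SE 0.84, adjusted p = 0.641) for *Tmem176a*, in wild type and knockout cells. edgeR and DESeq2 called no member in wild type cells, where 0.00814% of all genes passed, or in knockout cells, where 0.0651% did. At an unadjusted p under 0.05 there was 1 member in wild type cells, *Tmem176a*, against 5.14% of all genes, and there were 2 in knockout cells, the *Tmem176* pair, against 5.55%. With mouse as a fixed block *Tmem176b* was called in knockout cells (-1.39, adjusted p = 0.0204), against 0.871% of all genes called lower, and with a random block it was not (-1.57, adjusted p = 0.53).

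The share of *Tmem176a* among the counts of the pair was 17.2% (95% Wilson interval 13.3 to 22.0) in wild type and 17.8% (13.7 to 22.8) in knockout cells in control medium, and with acLDL 18.3% (12.2 to 26.6) and 18.9% (13.3 to 26.1), with the counts of the 3 libraries of a group added up. With oxLDL it was 7.27% (2.86 to 17.3) of 55 counts in wild type and 8.89% (3.51 to 20.7) of 45 counts in knockout cells. These intervals cover counting error only. By library the share was 22.2, 19.2 and 13% in control medium and 0, 12.9 and 0% with oxLDL in wild type, and 24.4, 14.1 and 15.8% against 25.0, 4.55 and 10.5% in knockout cells, and the difference was not tested. Summed over both genes, the level went from 69.9 ± 51.7 CPM in control to 12.5 ± 5.8 CPM with oxLDL in wild type, and from 56.3 ± 14.9 to 9.8 ± 5.93 CPM in knockout cells.

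No difference between genotypes was detectable for the pair. *Tmem176b* differed between knockout and wild type by -0.36 on the log2 scale in control medium (95% interval -1.21 to 0.49), 0.12 in acLDL (-0.9 to 1.14) and -0.35 in oxLDL (-1.66 to 0.95). For *Tmem176a* the differences were -0.33 (-1.31 to 0.66), 0.17 (-1.05 to 1.39) and -0.02 (-2.27 to 2.22). The groups overlapped in all 3 media for both genes, and the intervals are wide, so these values do not show that the genotypes were alike.

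**Figure D2:**
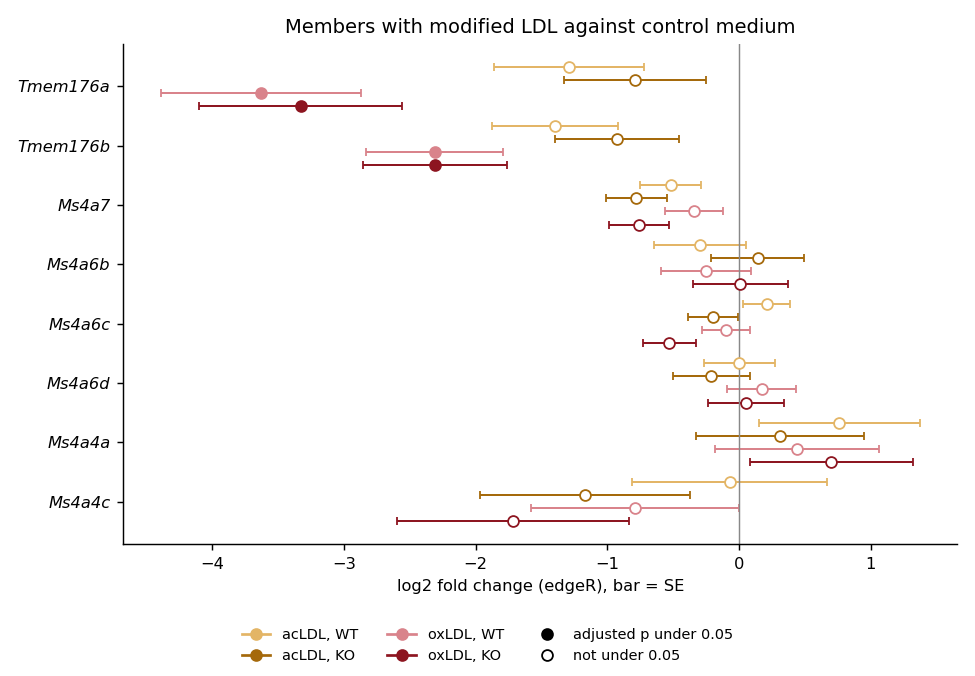
Log2 fold change of each member with acLDL (orange) or oxLDL (red) against control medium, light for wild type and dark for knockout. Bars are the standard error, and filled points have an adjusted p under 0.05 over all 12290 genes. The 4 filled points are Tmem176a and Tmem176b with oxLDL, between -3.63 and -2.31.

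*Ms4a7*, a gene typical of mature macrophages and the most abundant of the 8, had fitted levels with modified LDL of 0.582 to 0.791 times control. In wild type cells it was at 236, 208 and 291 CPM in control medium, 206, 145 and 165 CPM with acLDL and 225, 149 and 209 CPM with oxLDL. Every mouse was below its own control in both LDL media, and the acLDL libraries did not overlap the control libraries. The summed macrophage markers were also below their own control in all 3 mice, at 4370, 7150 and 6950 CPM in control medium, 4280, 5730 and 5520 CPM with acLDL and 3480, 5830 and 5180 CPM with oxLDL. That sum was chiefly *Csf1r* and *Adgre1* (medians 2240 and 1480 CPM). Of its 8 markers none passed with either LDL. At an unadjusted p under 0.05, 1 was higher and 1 lower with acLDL, against 7.33% of all genes in either direction. With oxLDL 2 were higher and 2 lower, against 4.68% and 5.35%. Their median log2 fold changes were -0.06 and -0.15. The log2 fold changes of *Ms4a7* were -0.52 (SE 0.23, adjusted p = 0.588) with acLDL and -0.34 (SE 0.22, adjusted p = 0.704) with oxLDL.

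In knockout cells *Ms4a7* was at 269, 132 and 217 CPM in control medium, 164, 93.9 and 106 CPM with acLDL and 144, 106 and 117 CPM with oxLDL. Mouse 2 was the lowest in each medium, so that its control library lay among the LDL libraries of the other mice. Within each mouse *Ms4a7* was below its own control in both LDL media, as was the sum of the macrophage markers, at 6030, 6490 and 7250 CPM in control medium, 5840, 5200 and 5770 CPM with acLDL and 4210, 5230 and 5230 CPM with oxLDL. Of the 8 markers none passed here either. With acLDL none reached an unadjusted p under 0.05. With oxLDL 2 were higher and 3 lower at that level, against 5.21% and 7.08% of all genes. The part of the macrophage markers in the levels of *Ms4a7* or of the *Tmem176* pair was not tested. The log2 fold changes of *Ms4a7* were -0.78 (SE 0.23, adjusted p = 0.192) and -0.76 (SE 0.23, adjusted p = 0.0902). With mouse as a fixed block *Ms4a7* was called with acLDL in wild type (-0.53, adjusted p = 0.00616) and knockout cells (-0.76, adjusted p = 6.43e-05) and with oxLDL in knockout cells (-0.72, adjusted p = 5.36e-05), where 4.82% of all genes were called lower. With a random block the wild type call was not made (-0.52, adjusted p = 0.27) and both knockout calls were (adjusted p = 0.0416 with acLDL and 0.0298 with oxLDL). Without control replicate 2 of the knockout it was also called in the fit without the block, at an adjusted p of 0.0392 with acLDL and 0.0187 with oxLDL.

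The 3 *Ms4a6* genes, one branch of neighbouring copies, showed no call with either LDL. *Ms4a6c* had log2 fold changes of 0.21 (SE 0.18) with acLDL and -0.1 (SE 0.18) with oxLDL in wild type, and of -0.2 (SE 0.19) and -0.53 (SE 0.2, adjusted p = 0.207) in knockout cells, where all 3 mice were lower with oxLDL. *Ms4a6d* had values of 0 (SE 0.27), 0.17 (SE 0.26), -0.21 (SE 0.29) and 0.05 (SE 0.29) in the same order, and *Ms4a6b* values of -0.3 (SE 0.35), -0.25 (SE 0.34), 0.14 (SE 0.35) and 0.01 (SE 0.36). The adjusted p of *Ms4a6b* and *Ms4a6d* was 0.892 or more in each of these comparisons.

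*Ms4a4a* and *Ms4a4c* were near the limit of detection. *Ms4a4a*, a surface protein of alternatively activated macrophages, gave 1 to 13 counts per library. Its log2 fold changes were 0.76 (SE 0.61) with acLDL and 0.44 (SE 0.62) with oxLDL in wild type and 0.31 (SE 0.64) and 0.7 (SE 0.62) in knockout cells, the only member with all 4 values above 0. *Ms4a4c* gave 0 to 10 counts per library and values of -0.07 (SE 0.74), -0.79 (SE 0.79), -1.17 (SE 0.8) and -1.72 (SE 0.88, adjusted p = 0.443). From summed counts, *Ms4a4c* with oxLDL in knockout cells was 0.29 times control, with a counting interval of 0.0846 to 0.803, and its groups there did not overlap.

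**Figure D3:**
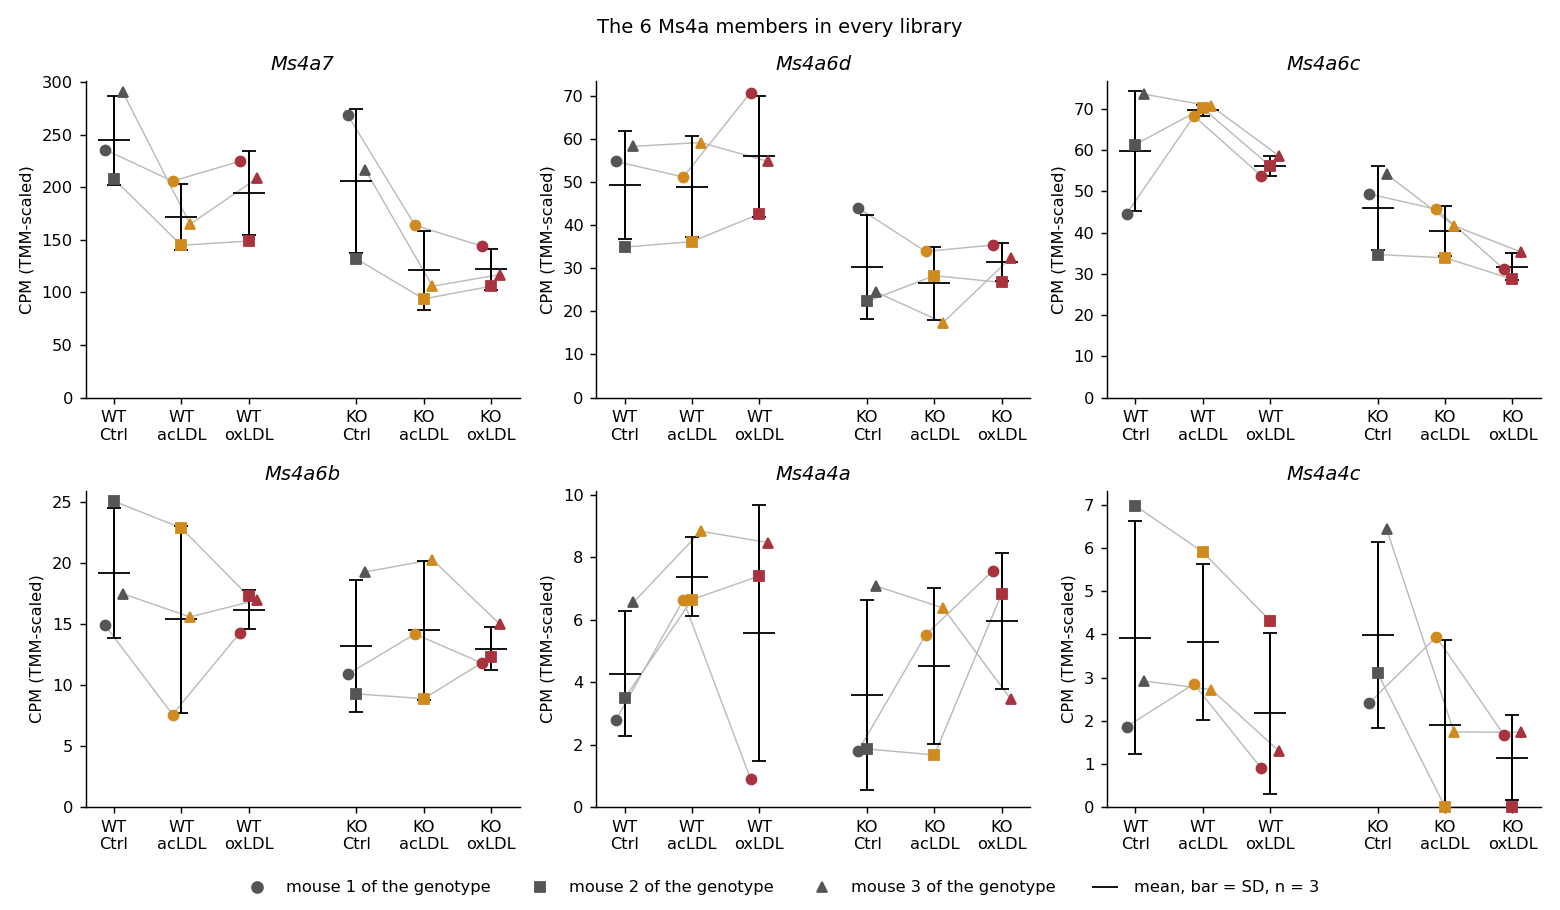
Level of the 6 Ms4a members in CPM on linear axes from 0, by genotype and medium, with symbols, lines and bars as in the plot of the Tmem176 genes. Ms4a6c and Ms4a6d are lower in knockout than in wild type libraries in both LDL media without overlap, and Ms4a4a and Ms4a4c stay at or below 8.84 CPM throughout.

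Between genotypes, no member was called. *Ms4a6c* was at 68.3, 70.2 and 70.7 CPM in wild type and 45.7, 33.9 and 41.7 CPM in knockout cells with acLDL, and at 53.8, 56.2 and 58.7 against 31.2, 28.7 and 35.3 CPM with oxLDL. The groups did not overlap in either medium. The log2 differences were -0.8 (SE 0.19, adjusted p = 0.36) and -0.82 (SE 0.19, adjusted p = 0.788). In control medium wild type libraries were at 44.6, 61.4 and 73.6 and knockout libraries at 49.4, 34.7 and 54.2 CPM, which overlapped, with a log2 difference of -0.39 (SE 0.18, adjusted p = 1.0).

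*Ms4a6d* was at 51.2, 36.2 and 59.2 CPM in wild type and 33.9, 28.3 and 17.4 CPM in knockout cells with acLDL, and at 70.8, 42.6 and 54.8 against 35.4, 26.7 and 32.4 CPM with oxLDL, again without overlap. The log2 differences were -0.9 (SE 0.28, adjusted p = 0.99) and -0.82 (SE 0.27, adjusted p = 0.933), and -0.69 (SE 0.28, adjusted p = 1.0) in control medium, where knockout mouse 1 lay among the wild type libraries. *Ms4a6b* differed less, by -0.56 (SE 0.35), -0.13 (SE 0.35) and -0.31 (SE 0.36) in control medium, acLDL and oxLDL, and overlapped in each.

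Summed over *Ms4a6b*, *Ms4a6c* and *Ms4a6d*, which removes the doubt about reads shared among the 3, the level was 114 to 149 CPM in wild type and 66.2 to 104 CPM in knockout control libraries, 127 to 146 against 71.1 to 93.8 CPM with acLDL, and 116 to 139 against 67.7 to 82.7 CPM with oxLDL. The genotypes did not overlap in any of the 3 media. The sum was built from members chosen with earlier results known, and no share over all genes was counted for such sums. Words that *Ms4a6c* and *Ms4a6b* share with the antisense transcript BE692007 leave a doubt that the sum does not remove. *Ms4a7* differed by -0.25 (SE 0.22) in control medium, -0.51 (SE 0.23, adjusted p = 0.99) with acLDL and -0.67 (SE 0.23, adjusted p = 0.933) with oxLDL, and the genotypes were apart without overlap with oxLDL only. *Ms4a4a* was apart with acLDL, at 6.64 to 8.84 CPM in wild type and 1.67 to 6.38 CPM in knockout cells (log2 difference -0.74, SE 0.59, adjusted p = 0.99).

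Set against the background, 0 of 8 members passed between genotypes in control medium (0.00814% of all genes passed), with acLDL (0.0163%) or with oxLDL (0.00814%), by edgeR or by DESeq2. At an unadjusted p under 0.05 there were 2 members in control medium (4.0% of all genes), 3 with acLDL (4.89%) and 3 with oxLDL (4.78%), all of them Ms4a genes lower in knockout cells. Groups did not overlap, with the knockout lower, for 0 members in control medium (4.39% of all genes), 3 with acLDL (4.78%) and 3 with oxLDL (4.80%). The 3 wild type and 3 knockout mice are the whole sample behind these differences, and the same mice recur in each medium, so the 3 media do not count as separate evidence. Markers of 2 other cell types had ranges that lay lower in the knockout: neutrophil markers (8 in the table, *Retnlg* at 0 in all libraries) summed to 72.9 to 252 CPM in wild type and 25.5 to 141 CPM in knockout libraries, and monocyte markers (5), chiefly *Ccr2*, to 85.3 to 156 and 68.7 to 133 CPM. The sum of resident macrophage markers (6, *Lyve1* at 0 in all libraries) reached higher in the knockout, at 38.5 to 93.8 CPM in wild type and 49.7 to 145 CPM. These ranges pool the 3 media. Of 4 resident macrophage markers tested none passed between genotypes, and they did not move as a set. At an unadjusted p under 0.05, 1 was higher and 1 lower in control medium and in oxLDL, and 1 was higher with acLDL. In control medium alone the neutrophil sums overlapped, at 72.9 to 126 CPM in wild type and 52.0 to 141 CPM in knockout libraries. They did not overlap with acLDL (78.9 to 216 against 25.5 to 64.6 CPM) or oxLDL (142 to 252 against 62.9 to 114 CPM). Of 6 neutrophil markers tested none passed. At an unadjusted p under 0.05, 4 were lower with acLDL and 5 with oxLDL, against 4.89% and 4.78% of all genes in either direction. The monocyte sums were apart with oxLDL only, at 106 to 120 against 72.5 to 87.6 CPM. The part of these cell types in the Ms4a differences was not tested.

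**Figure D4:**
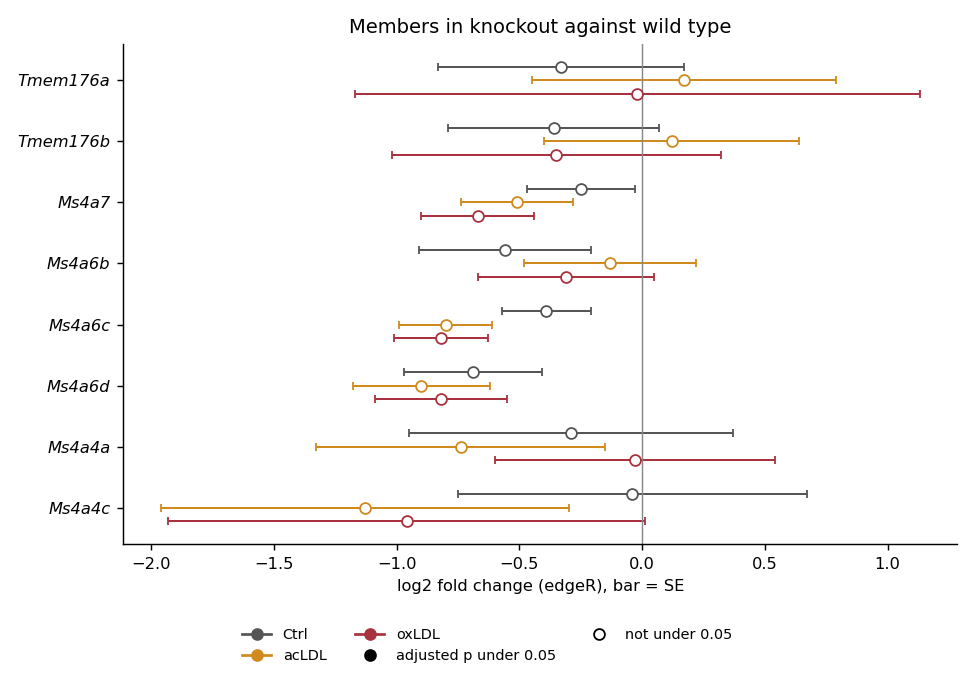
Log2 difference of each member between knockout and wild type in control medium (grey), acLDL (orange) and oxLDL (red), with the standard error as bar. Open points mark an adjusted p that is not under 0.05, which is the case for all 24. Ms4a6c and Ms4a6d lie furthest from 0 relative to their bars, at -0.9 to -0.8 in the LDL media.

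The difference in response between genotypes was tested directly. No member passed for acLDL or oxLDL, 0% of all genes did in either, and DESeq2 called no member. At an unadjusted p under 0.05 there was also no member in either test, against 2.66% of all genes for acLDL and 2.75% for oxLDL. The difference for *Tmem176a* was 0.49 (95% interval -1.07 to 2.06) for acLDL and 0.3 (-2.43 to 3.03) for oxLDL, for *Tmem176b* 0.47 (-0.85 to 1.8) and 0 (-3.4 to 3.41) on the log2 scale, and for *Ms4a7* -0.26 (-0.89 to 0.36) and -0.42 (-1.04 to 0.21). The SE of these tests is the log2 value over the root of the test statistic, which is imprecise near 0, and with the SEs of both responses combined the oxLDL interval of *Tmem176b* was -1.48 to 1.49 and that of *Tmem176a* -1.81 to 2.42. These intervals do not show that the genotypes responded alike.

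The genes nearest to the pair in their course over the 18 libraries included interferon-response genes and a complement gene. Among 6754 genes of at least 20 CPM, those with the smallest root mean square difference in centred log2 CPM from *Tmem176a* were *C3* (0.55), the central complement component, *Slc2a6* (0.58), a lysosomal glucose transporter family member, and *Ifit2* (0.6). From *Tmem176b* they were *Ifit2* (0.54), *Ifi211* (0.61) and *Ddx58* (0.64), the gene of the RNA sensor RIG-I. *Tmem176a* and *Tmem176b* differed from each other by 0.61, against their own spreads of 1.15 and 1.18. The 3 libraries of a mouse share an animal, so the 18 points are not independent, and the low counts of the pair add noise to each distance.

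*Ifit2*, for example, was at 36.0 ± 31.1, 29.8 ± 21.6 and 14 ± 13.7 CPM in wild type (control, acLDL, oxLDL) and at 49.2 ± 15.5, 25.7 ± 5.62 and 9.85 ± 5.17 CPM in knockout cells. *C3* went from 174 ± 100 to 89.1 ± 36.1 and 52.3 ± 26.2 CPM in wild type and from 257 ± 20.1 to 107 ± 8.15 and 59.1 ± 6.95 CPM in knockout cells. In both, as in the *Tmem176* genes, the control libraries were more widely spread in wild type than in knockout.

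In control medium the mice of a genotype stood in the same order for interferon-response transcripts as for *Tmem176b*. The 12 listed interferon-response genes summed to 231, 805 and 398 CPM in the control libraries of wild type mice 1, 2 and 3, where *Tmem176b* was 13, 97.0 and 63.4 CPM. In knockout control libraries they summed to 408, 497 and 737 CPM, where *Tmem176b* was 35.6, 41.5 and 61.9 CPM. The summed macrophage markers stood in the same order, at 4370, 7150 and 6950 CPM in wild type control libraries. In those of the knockout they were at 6030, 6490 and 7250 CPM. The order was thus not particular to the interferon-response genes, and *Ifit2*, picked above as near the pair, is among the 12. *Tmem176a* kept the order in wild type control libraries (3.71, 23.0 and 9.48 CPM) but not in those of the knockout (11.5, 6.81 and 11.6 CPM). With LDL the order of *Tmem176b* was kept only in part. With acLDL the sums were 186, 637 and 312 CPM in wild type and 308, 429 and 356 CPM in knockout cells, and with oxLDL 114, 401 and 194 CPM and 179, 277 and 267 CPM. With oxLDL 0 of the 12 genes passed in wild type, where 1.07% of all genes were called lower, and 8 were lower at an unadjusted p under 0.05, against 5.35% of all genes (median log2 fold change -1.51). In knockout cells 3 of 12 fell, against 1.66% of all genes (median -1.82), namely *Ifit3* (log2 fold change -3.43, adjusted p = 0.016), *Ifit2* (-2.26, adjusted p = 0.0375) and *Irf7* (-1.98, adjusted p = 0.0488). The median over all genes was 0.01 in wild type and 0 in knockout cells. The part of the interferon response in the values of the pair was not tested.

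Other lists around the family were counted in the same way. Of 17 tested tetraspanins, which also cross the membrane 4 times but belong to another family, 1 fell and none rose in each of the LDL comparisons with control: *Cd82*, by 1.27 on the log2 scale with acLDL and 1.02 with oxLDL in wild type, and by 0.83 and 0.96 in knockout cells (adjusted p = 0.000157, 0.000991, 0.0154 and 0.00148). Over all genes 0.407% were called lower with acLDL in wild type and 0.448% in knockout cells, and with oxLDL the shares were 1.07% and 1.66%. Of 7 tested genes of Trem2 and ITAM signalling, 0 passed with acLDL and 1 fell with oxLDL in each genotype, *Adam17*, the sheddase of many surface receptors, by 0.87 (adjusted p = 0.00735) in wild type and 1.03 (adjusted p = 0.001) in knockout cells. Of 6 tested genes of alternative activation and glucocorticoid response, 0 passed in any of the 4 comparisons by edgeR, with 2 higher at an unadjusted p under 0.05 with oxLDL in wild type and 1 in knockout cells, against 4.68% and 5.21% of all genes.

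The genes around the 2 loci were read in the same way. Of 38 genes whose start lies within 500 kb of the *Tmem176* pair, 10 were tested. The nearest of these lay at 195.6 and -238.9 kb from the start of *Tmem176a*, so no gene closer to the pair was tested. Of the 10, none passed with oxLDL in either genotype and none reached an unadjusted p under 0.05. Their median log2 fold change was -0.01 in wild type and 0.01 in knockout cells. Of 46 genes within 500 kb of the Ms4a members 12 were tested, and none passed with oxLDL. At an unadjusted p under 0.05, 0 were lower in wild type and 2 in knockout cells, against 5.35% and 7.08% of all genes, and the medians were -0.03 and 0.06. One of them, *AW112010*, named here after its values were seen, had the lowest value of that neighbourhood, -3.43 (adjusted p = 0.108) in knockout and -1.06 (adjusted p = 0.815) in wild type cells.

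**Figure D5:**
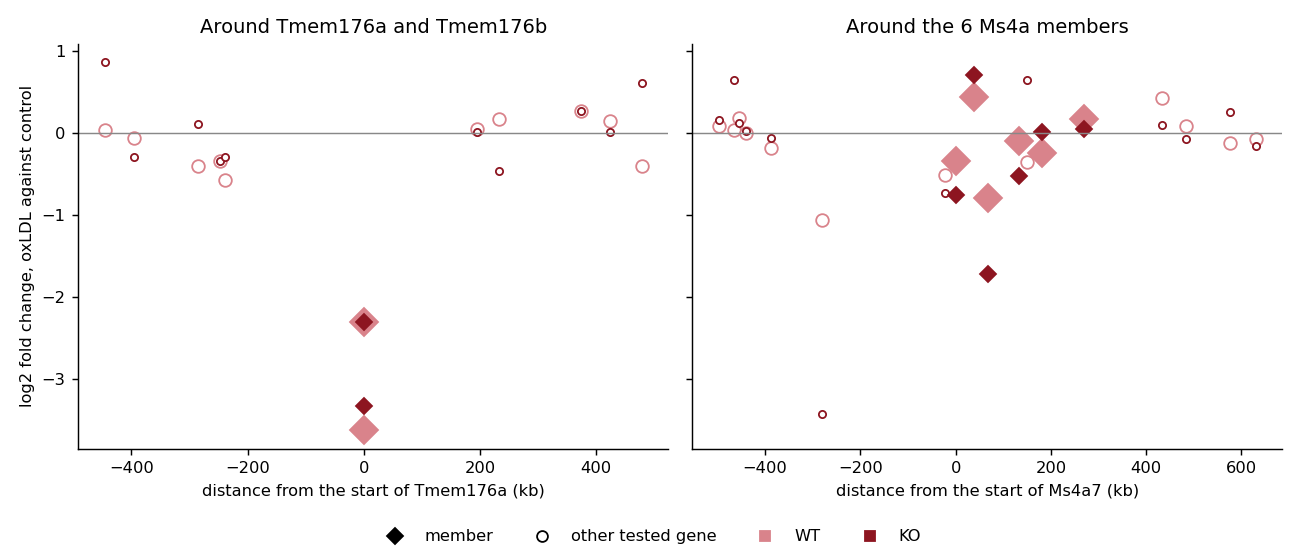
Log2 fold change with oxLDL against control of every tested gene within 500 kb of the Tmem176 pair (left) or of the Ms4a members (right), by distance of its start from that of Tmem176a or Ms4a7 in kb. Filled diamonds are members, open circles other genes, light large symbols wild type and dark small symbols knockout. On either side of the pair no tested gene goes below -0.58, while the pair lies at -3.63 to -2.31. The tested genes nearest to the pair lie at 195.6 and -238.9 kb.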

How the data were processed

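Bulk RNA-seq of bone marrow-derived macrophages (18 libraries, stranded total RNA kit) was used. The authors trimmed the reads, aligned them with STAR to mm10 and quantified them with Salmon on Ensembl release 93; the deposited values are estimated counts per gene, not normalized, of which 5.85 to 8.1% per library were not whole. The strand setting is not given in the sources used here. Counts were rounded, genes filtered with filterByExpr (minimum count 2, minimum total 10), and scaled by TMM. edgeR 4.0.16 quasi-likelihood tests on R 4.3.3 (6 group means, all 18 libraries, Benjamini-Hochberg over all 12290 genes tested, threshold 0.05) gave log2 fold changes and SE (the log2 fold change over the root of F; 95% intervals are normal). CPM are TMM-scaled; CPM per kb use the median length of coding transcripts of GENCODE M21 (GRCm38). DESeq2 1.42.0 and limma 3.58.1 served as alternatives, with other filters and scaling, and each library left out. The edgeR script was tested on simulated data. Plots used matplotlib 3.10.9.

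Depth was 1043492 to 1768816 counts per library. Groups and mice come from the labels. Within a genotype the labels give the same animal for the 3 media, so mouse as a block was fitted too; deviations of the 18 same-mouse pairs of libraries correlated at 0.0551 to 0.293 (median 0.158), 14 of 18 above 0.1. Equal replicate numbers of different genotypes are different animals. Replicate pairs differed by more than sampling noise (chi-square per degree of freedom 2.03 to 12.7).

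The 8 members and all lists were chosen with earlier results of these data known. Named besides them are every other Ms4a gene, *Slc7a7*, for each member called the 3 genes of at least 20 CPM nearest in centred log2 CPM (prior count 2), and up to 3 genes per list that passed. 1 gene of the Trem2 and ITAM signalling list was not analysed here.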

Additional observations from a re-analysis of the deposited data

How the results depend on the processing

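The estimates kept their direction for *Tmem176a* and *Tmem176b* with oxLDL under every alternative run, but their calls, at a depth that leaves *Tmem176a* 0 to 4 counts per oxLDL library, did not. With oxLDL in wild type cells 2 members were called, against 1 by DESeq2 (*Tmem176b* lost, adjusted p = 0.0811), 1 with mouse as random replicate block (*Tmem176b* lost, 0.0613) and 0 with only the libraries compared (0.129 for *Tmem176a* and 0.0871 for *Tmem176b*). In knockout cells 2 were called, against 1 by DESeq2 (*Tmem176b* lost, 0.0562). With mouse as fixed replicate block both genes were called in each genotype. The edgeR adjusted p of that fit in wild type cells was 0.000128 for *Tmem176a* and 7.68e-07 for *Tmem176b*. In knockout cells it was 0.000335 and 6.7e-07, where 4.82% of all genes were called lower. The share of all genes for wild type cells in that fit was not counted. Leaving out single libraries gave 0 to 2 members in wild type and 0 to 3 in knockout cells. *Tmem176b* alone was lost without wild type control replicate 3 (0.0732) or oxLDL replicate 1 (0.0661), and *Tmem176a* alone without knockout control replicate 1 (0.0664) or oxLDL replicate 2 (0.1). In knockout cells the pair, *Tmem176a* first, had adjusted p of 0.0639 and 0.119 without control replicate 3, 0.0693 and 0.129 without oxLDL replicate 1, and 0.0866 and 0.104 without oxLDL replicate 3. The cause of these losses was not tested.

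With acLDL, where no member was called, 1 was in wild type and 2 in knockout cells without a count filter, 2 and 2 with mouse as fixed replicate block, 1 in knockout cells with mouse as random replicate block (*Ms4a7*, 0.0416) and 1 there with only the libraries compared (*Tmem176b*, 0.0457), and 0 to 1 in either genotype with single libraries left out. Between oxLDL and acLDL in knockout cells 1 was called without a count filter and 1 with the fixed block. Between genotypes 2 were called without a count filter with acLDL (*Ms4a6c* and *Ms4a6d*, 0.0314 each) and 2 with oxLDL (*Ms4a7*, 0.0112, and *Ms4a6c*, 0.0487). The share of all genes called without a count filter was not counted, so the calls of that fit have no background to be read against. Its edgeR adjusted p for *Tmem176b* with oxLDL in wild type cells was 1.66e-15, against 0.0208 with the filter. *Ms4a7* with oxLDL in knockout cells was also called with the fixed block, with the random block (0.0298) and with only the libraries compared (0.00872). The block changed no other call. Mice are nested in genotype, so no fixed block could be fitted to the genotype comparisons. Library size scaling and the default count filter left every count of members called as it was, although *Ms4a4c* is not among the 10004 genes of the default filter. All 96 group levels recomputed with library size scaling or as medians moved by less than 1 SD. For the medians this was bound to hold, because a median never lies more than 1 SD from its mean, so it shows no stability. The TMM factors of 0.956 to 1.03 left library size scaling little room to move a level.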
